A study of Mus musculus with 9 samples.

Results

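The genes described are 10 that recruit leukocytes from blood into tissue: 3 adhesion molecules of blood vessels (Vcam1, Icam1 and Icam2) and 7 chemokines (Ccl2, Ccl5, Cxcl1, Cxcl9, Cxcl10, Cxcl12 and Cxcl16). They were chosen by gene symbol, and all 10 were found among the 22544 entries of a table of transcript levels in mouse ovary. The table gives FPKM (fragments per kilobase of transcript, scaled to the mapped fragments of the library), a level corrected for transcript length and library size, in 9 libraries of polyadenylated RNA, 3 in each of 3 groups. The HBOT libraries are labelled with hyperbaric oxygen therapy and form, per the design text, the group that had it together with CTX. The CTX libraries carry the drug label alone, and the NC libraries, labelled with neither, served as the control. By its title the series asks about protection of the ovary by hyperbaric oxygen. CTX commonly stands for cyclophosphamide, an alkylating drug that is toxic to follicles. The sources used here do not state strain, age, dose, oxygen pressure or the interval to collection. The labels do not say that replicates are separate animals. Each p-value therefore sets a difference against the spread between these libraries, which may be technical.

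Leukocytes leave the blood in steps. Chemokines held on the vessel wall bind receptors on a rolling leukocyte, its integrins are activated, and these grip VCAM1, ICAM1 and ICAM2 on the endothelium. Chemokines are small secreted proteins, grouped by the spacing of their first cysteines into CC and CXC families, and each attracts the cells that carry its receptor. In the ovary leukocyte entry is part of normal physiology, being known around ovulation and during breakdown of the corpus luteum. Transcripts of several members are induced by interferon or by NF-kB, the transcription factor of inflammatory signalling, while Cxcl12 and Icam2 are known as largely constitutive.

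Differences between groups were tested with limma on log2(FPKM + 1) over the 13338 entries with at least 1 FPKM in at least 3 libraries, and a gene was called at a Benjamini-Hochberg adjusted p under 0.05. All 10 members met this filter. Cxcl9 met it in only 4 libraries, 2 of them HBOT and 2 CTX, so its differences from NC are conditioned on the groups where it was high. No entry was called in any comparison by limma, 0 of 13338 in CTX against NC, in HBOT against CTX and in HBOT against NC (0% each), so no member was called. Unadjusted p-values under 0.05 were found for 1065, 812 and 1584 entries in the same order. The library of HBOT replicate 2 was unlike the rest, with 1637 entries more than 1 log2 unit from their mean against 173 to 347 in each of the others, and with 361 FPKM of the ovulatory growth factor Ereg, which was below 1 FPKM elsewhere. Member differences that involve the HBOT group are given with and without it, except that of Cxcl12 from NC, given as a range over left-out libraries. As for the labelled tissue, all 8 oocyte and all 8 granulosa cell markers listed were above the filter. Corpus luteum markers summed to 355, 519 and 3070 FPKM in HBOT replicates 1 to 3, 343 to 471 in CTX and 2342 to 2839 in NC libraries, and oocyte markers to 254 to 287, 171 to 270 and 111 to 159 FPKM in the same order of groups. Their part in the values below was not tested. In RNA of whole tissue, fewer cells of a type and less RNA per cell cannot be told apart.

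As levels per transcript length, the members covered a wide range. Cxcl12 was the most abundant in every group, with means of 33.9 FPKM in HBOT, 24.2 in CTX and 33.0 in NC libraries, and its libraries did not overlap those of the next member in any group. Cxcl9 was the lowest in HBOT (1.70 FPKM) and NC libraries (0.223 FPKM), and Ccl2 in CTX libraries (1.95 FPKM). The order between was loose: of 9 pairs of neighbouring genes, 6 overlapped in HBOT, 7 in CTX and 7 in NC libraries. In HBOT libraries Icam1 (12.6 FPKM) stood ahead of Vcam1 (11.3 FPKM) only through replicate 2. The plot of FPKM by group shows that Vcam1 alone among the 10 separated the 3 groups completely.

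**Figure D1:**
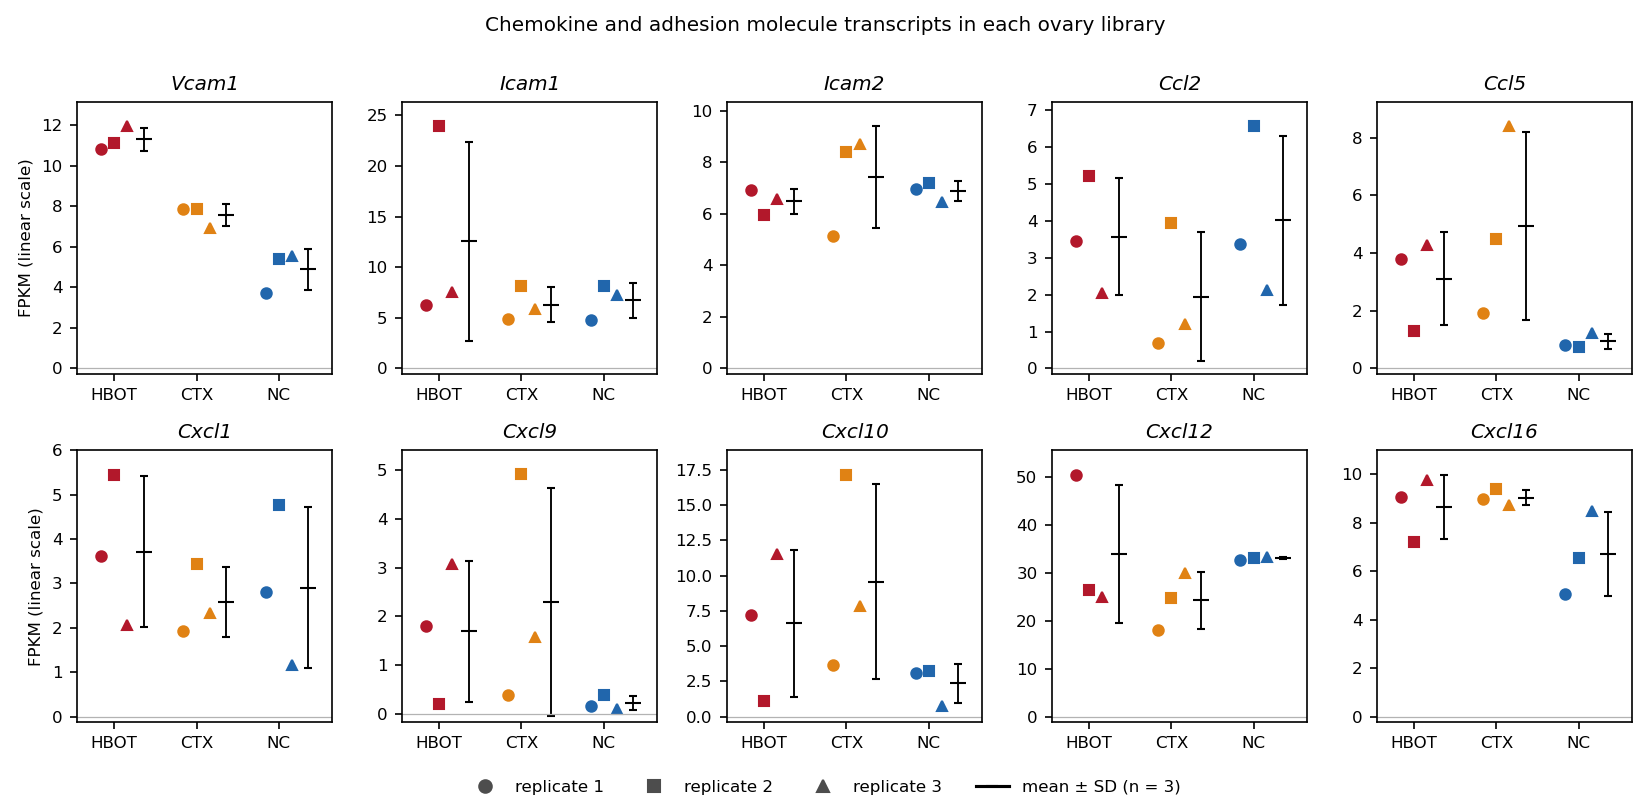
FPKM (linear scale) of the 10 members in each ovary library by group, with symbols for replicates 1 to 3 and black bars for the mean ± SD (n = 3). Vcam1 lies at 10.8 to 11.9 FPKM in HBOT, 6.92 to 7.87 in CTX and 3.70 to 5.53 in NC libraries, while for Icam1 the HBOT replicate 2 library (23.9 FPKM) stands far above the other 8.

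Vcam1 (ENSMUSG00000027962) encodes the vascular adhesion molecule that binds the integrin made of the Itga4 and Itgb1 products, carried by monocytes and lymphocytes. Its level in HBOT replicates 1 to 3 was 10.8, 11.1 and 11.9 FPKM, in CTX 7.87, 7.87 and 6.92 FPKM, and in NC 3.70, 5.42 and 5.53 FPKM. Every HBOT library lay above every CTX library and every CTX library above every NC library, and the library that stands apart elsewhere lay between the other HBOT libraries. Of the 13338 entries tested, 32 had this complete order (0.24%) and 27 the opposite one (0.202%), a count made after the values of Vcam1 had been seen. The group means were 11.3 ± 0.577, 7.55 ± 0.548 and 4.89 ± 1.02 FPKM in HBOT, CTX and NC libraries (SD, n = 3 each), so the HBOT mean was 2.31 times and the CTX mean 1.55 times the NC mean.

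By limma Vcam1 differed by 1.08 log2 units between HBOT and NC libraries (SE 0.15, adjusted p = 0.235), which was the rank 3 smallest p of all 13338 entries but did not pass. CTX against NC gave 0.55 (SE 0.15, adjusted p = 0.371) and HBOT against CTX gave 0.53 (SE 0.15, adjusted p = 0.710). Without HBOT replicate 2 HBOT gave 1.09 against NC (adjusted p = 0.142) and 0.53 against CTX (adjusted p = 0.734). With a weight estimated for each library, which gave HBOT replicate 2 a weight of 0.0998, Vcam1 was called in HBOT against NC (1.14, adjusted p = 0.0216, against 0.0216 to 0.605 over the 18 alternatives).

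Markers of endothelium did not show this order. The summed FPKM of 12 endothelial markers, including Pecam1 and Cdh5, ranged from 150 to 190 in HBOT, 167 to 210 in CTX and 177 to 195 in NC libraries, and 0 of the 12 was at 0 FPKM in any library. In HBOT against NC 10 of the 12 were below and 2 above 0, where 47.6% of all entries were above. Their median difference was -0.13 log2 units (all entries: -0.01), and 0 were called. Vcam1 amounted to 5.69%, 7.41% and 6.56% of that sum in HBOT replicates 1 to 3, 4.72%, 4.19% and 3.30% in CTX, and 1.90%, 3.07% and 3.04% in NC. On this scale the 3 groups did not overlap either, but the ratio reuses the same Vcam1 values and is no separate support. Smooth muscle and pericyte markers summed to 382 to 526 FPKM in HBOT, 338 to 400 in CTX and 332 to 417 in NC libraries, and stromal markers to 521 to 858, 539 to 710 and 681 to 1013 FPKM in the same order of groups. The neutrophil marker Csf3r had the same complete order as Vcam1. It was at 2.54 to 3.34 FPKM in HBOT, 1.33 to 1.71 in CTX and 0.400 to 0.877 in NC libraries. It met the filter only through HBOT and CTX libraries. Of 4 neutrophil markers tested it was the 1 whose HBOT and CTX libraries did not overlap. Cxcr2, below the filter, had this order too. The part of muscle, stromal or leukocyte content in the Vcam1 values was not tested.

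Icam1 (ENSMUSG00000037405) encodes the endothelial ligand of the integrins that contain the Itgb2 product. HBOT replicates 1 to 3 had 6.31, 23.9 and 7.52 FPKM, CTX libraries 4.84, 8.17 and 5.91 FPKM, and NC libraries 4.80, 8.11 and 7.23 FPKM. The groups overlapped, and HBOT replicate 2 (23.9 FPKM) stood far above the next highest library (8.17 FPKM). The difference between HBOT and CTX was 0.69 log2 units (SE 0.43, adjusted p = 0.710 by limma) with that library and 0.14 without it, and that between HBOT and NC was 0.61 (adjusted p = 0.567) with it and 0.058 without it. The endothelial selectin Sele, which slows rolling leukocytes, was likewise at 2.27 FPKM in HBOT replicate 2 and at 0.312 FPKM or less in the other 8 libraries.

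Icam2 (ENSMUSG00000001029), a related ligand that resting endothelium carries, was at 6.91, 5.96 and 6.58 FPKM in HBOT, 5.14, 8.38 and 8.71 FPKM in CTX, and 6.96, 7.21 and 6.45 FPKM in NC libraries. The groups overlapped. HBOT against NC gave -0.07 log2 units with a 95% confidence interval of -0.48 to 0.33, and -0.022 without HBOT replicate 2. HBOT against CTX gave -0.14 with an interval of -0.55 to 0.27, and -0.089 without that library. Intervals of this kind come from the limma fit and are for the difference of group means. Their width rests on the spread between libraries.

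Among the integrins that grip these molecules, Itgal, expressed by lymphocytes and other leukocytes, was at 1.63 ± 0.502 FPKM in CTX and 0.513 ± 0.155 in NC libraries (SD, n = 3 each), without overlap (log2 difference 0.78, SE 0.23, adjusted p = 0.424 by limma). No NC library had 1 FPKM of it, so it met the filter only through the other groups. It was at 1.28 ± 0.534 FPKM in HBOT libraries. Itgb2 averaged 3.91 FPKM in HBOT, 4.12 in CTX and 2.90 in NC libraries, and Itgam 1.23, 0.889 and 1.19 FPKM, with overlapping groups. Itga4 was at 1.02 to 1.35 FPKM in CTX against 0.699 to 0.814 FPKM in NC libraries, and at 0.390 to 1.05 FPKM in HBOT libraries. Itga4 met the filter only through the CTX libraries and HBOT replicate 1, so its difference from NC is conditioned on the group where it was high. Itgb1, which most cells of the ovary carry, was at 107 to 125 FPKM in CTX against 134 to 143 FPKM in NC libraries (-0.29, SE 0.10, adjusted p = 0.492).

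Cxcl9 (ENSMUSG00000029417) and Cxcl10 (ENSMUSG00000034855) encode chemokines that interferon induces and that attract activated T cells and NK cells through the receptor CXCR3. Both genes lie on chromosome 5. With the protein-coding genes of RefSeq ordered by start position, only Art3 comes between them, and it overlaps Cxcl10. For these, and for the 2 members that were highest in HBOT replicate 2 (Icam1 and Cxcl1), the 250 bases before the RefSeq transcript start are shown. The windows were chosen with these values known, and why the pairs differed across libraries was not tested. The sequences are from RefSeq on GRCm38.p6, 5′ to 3′ on the gene's strand, at chr5:92348890-92349139 (minus strand) for Cxcl10, chr5:92328080-92328329 (minus strand) for Cxcl9, chr9:21015690-21015939 (plus strand) for Icam1 and chr5:90890995-90891244 (plus strand) for Cxcl1. The libraries themselves were processed on another build (GRCm39). Capitals mark matches to 3 patterns.
Cxcl10: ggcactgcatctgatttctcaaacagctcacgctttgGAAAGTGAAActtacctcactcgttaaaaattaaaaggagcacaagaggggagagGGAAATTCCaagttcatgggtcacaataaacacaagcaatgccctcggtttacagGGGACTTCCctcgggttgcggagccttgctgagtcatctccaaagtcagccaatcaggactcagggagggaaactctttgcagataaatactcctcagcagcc
Cxcl9: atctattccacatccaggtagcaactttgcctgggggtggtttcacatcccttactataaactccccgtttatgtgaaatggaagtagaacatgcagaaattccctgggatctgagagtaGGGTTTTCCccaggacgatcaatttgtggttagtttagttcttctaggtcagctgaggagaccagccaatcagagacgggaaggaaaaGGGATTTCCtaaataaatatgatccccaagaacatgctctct
Icam1: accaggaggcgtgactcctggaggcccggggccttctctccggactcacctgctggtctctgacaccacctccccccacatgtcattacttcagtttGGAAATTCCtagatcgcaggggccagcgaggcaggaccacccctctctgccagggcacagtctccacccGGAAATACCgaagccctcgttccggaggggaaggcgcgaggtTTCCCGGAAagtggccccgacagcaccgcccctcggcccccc
Cxcl1: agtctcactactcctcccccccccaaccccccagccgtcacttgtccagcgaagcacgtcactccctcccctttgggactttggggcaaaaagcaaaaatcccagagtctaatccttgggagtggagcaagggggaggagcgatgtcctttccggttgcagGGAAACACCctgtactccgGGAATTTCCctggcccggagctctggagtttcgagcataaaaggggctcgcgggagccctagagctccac

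The patterns, searched on both strands, were a core of NF-kB sites (GGNNNTTCC), an interferon-stimulated element (TTTC, then any pair of bases, then TTTC) and the palindromic gamma-activated site (TTCNNNGAA). Each of the 4 windows holds 2 matches to the NF-kB core. At least 1 match is found in 15.7% of all 32851 promoter windows of this length, and the share with 2 was not counted. In Cxcl10 they are GGAAATTCC and GGGACTTCC, in Cxcl9 GGGTTTTCC and GGGATTTCC, in Icam1 GGAAATTCC and GGAAATACC, and in Cxcl1 GGAATTTCC and GGAAACACC. The interferon pattern is found in Cxcl10 alone, as GAAAGTGAAA on the strand shown (2.98% of windows hold it), and the gamma-activated site in Icam1 alone, as TTCCCGGAA (7.02% of windows). The window of Cxcl12 holds none of the 3. The RefSeq table matched these 5 of the 10 members. A match is a stretch of letters, and binding was not measured.

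Cxcl10 was at 7.20, 1.12 and 11.5 FPKM in HBOT replicates 1 to 3, at 3.68, 17.2 and 7.86 FPKM in CTX, and at 3.09, 3.24 and 0.771 FPKM in NC. All CTX libraries lay above all NC libraries, and HBOT replicates 1 and 3 did as well, whereas HBOT replicate 2 lay among the NC values. The difference between CTX and NC was 1.54 log2 units (SE 0.71, adjusted p = 0.654 by limma), and 1.04 without CTX replicate 2, the highest library. RefSeq places Art3 across the Cxcl10 locus, and the sources used here do not state whether counting used strand, so some reads could belong to either gene.

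Cxcl9 was lower throughout, at 1.80, 0.207 and 3.08 FPKM in HBOT, 0.394, 4.91 and 1.58 FPKM in CTX, and 0.165, 0.387 and 0.116 FPKM in NC libraries. It had the same libraries at the top as Cxcl10 (CTX replicate 2, then HBOT replicate 3), and again HBOT replicate 2 lay among the NC values. CTX replicate 1 (0.394 FPKM) lay only just above the highest NC library (0.387 FPKM). The difference of CTX against NC was 1.19 (SE 0.56, adjusted p = 0.662 by limma), and 0.64 without CTX replicate 2. Against CTX, HBOT gave -0.21 for Cxcl9 and -0.60 for Cxcl10, and these became 0.29 and 0.16 without HBOT replicate 2. Against NC, HBOT gave 0.98 for Cxcl9 (SE 0.56, adjusted p = 0.499) and 0.94 for Cxcl10 (SE 0.71, adjusted p = 0.589), which became 1.47 and 1.69 without that library, and 0.59 and 0.41 without HBOT replicate 3.

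The third ligand of CXCR3, Cxcl11, was at 0.346 FPKM or less in every library. The receptor gene Cxcr3 was at 0.686 to 1.45 FPKM in HBOT, 0.658 to 1.45 in CTX and 0.400 to 0.715 in NC libraries, overlapping between groups. Interferon gamma itself (Ifng) was at 0 FPKM in all 3 NC libraries and in 1 library each of HBOT and CTX, and at most 0.175 FPKM elsewhere. Of 10 genes of interferon gamma signalling 9 were tested and 0 called in any comparison. In CTX against NC 7 of the 9 were above 0 (59.5% of all entries), with a median of 0.19 log2 units (all entries: 0.05), and 4 did not overlap (21% of all entries). Ciita, the activator of class II histocompatibility genes, was at 1.55 to 3.87 FPKM in CTX against 0.548 to 0.634 in NC libraries, and met the filter only through CTX and HBOT libraries. The transcription factor Irf1, which acts on promoters of interferon-induced genes, was at 32.7 to 55.4 FPKM in CTX against 19.1 to 24.5 in NC libraries. In HBOT replicate 2 both lay within the NC range, at 0.607 and 22.3 FPKM.

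**Figure D2:**
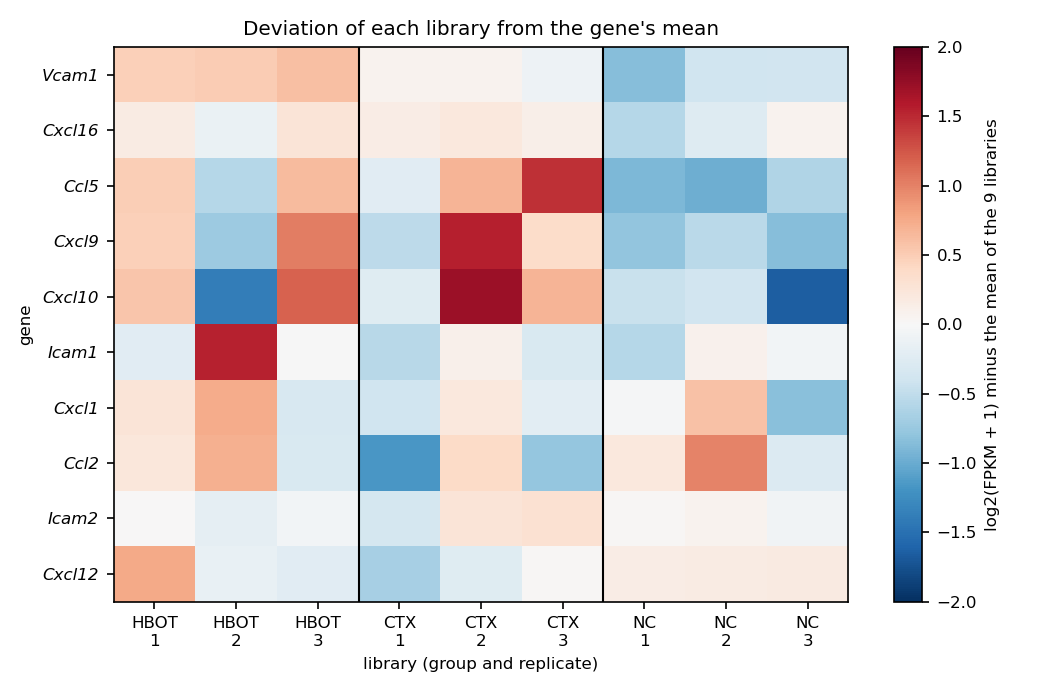
Deviation of each library from the gene's mean over the 9 libraries, on the log2(FPKM + 1) scale (red above, blue below), with libraries in columns by group and replicate. Vcam1 is above its mean in all 3 HBOT libraries and below it in all 3 NC libraries. Cxcl9, Cxcl10 and Ccl5 are below their means in HBOT replicate 2 (1.12 FPKM for Cxcl10), where Icam1, Cxcl1 and Ccl2 are above theirs.

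Ccl5 (ENSMUSG00000035042), made by activated T cells, NK cells and macrophages and read by receptors that include CCR1, was at 3.78, 1.30 and 4.28 FPKM in HBOT, 1.93, 4.48 and 8.40 FPKM in CTX, and 0.824, 0.741 and 1.24 FPKM in NC libraries. Both treated groups lay wholly above NC, HBOT replicate 2 by the smallest margin. The CTX mean was 5.27 times and the HBOT mean 3.33 times the NC mean. The log2 difference was 1.47 for CTX against NC (SE 0.44, adjusted p = 0.424 by limma) and 1.01 for HBOT against NC (SE 0.44, adjusted p = 0.419). With library weights Ccl5 was called in CTX against NC (1.65, adjusted p = 0.0393, against 0.0393 to 0.976 over 17 alternatives). HBOT against CTX gave -0.46 with a 95% confidence interval of -1.46 to 0.54, so neither direction nor likeness is shown. Without HBOT replicate 2 these values were 1.38 against NC and -0.083 against CTX.

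The summed level of T and NK cell markers also lay above NC in both treated groups. Of 12 listed, 11 were in the table, and 10 of these had a higher mean in HBOT than in NC libraries and 10 a higher mean in CTX than in NC libraries, with Cd2 below NC in HBOT and Klrb1c below NC in CTX. The sum over the 11 was 8.07 to 12.5 FPKM in HBOT, 7.0 to 16.2 in CTX and 3.04 to 4.76 in NC libraries, with 0 markers at 0 FPKM. Over all entries tested, log2 differences were above 0 for 47.6% in HBOT against NC and 59.5% in CTX against NC. The largest sum was in CTX replicate 3, which also had the most Ccl5. In HBOT replicate 2 most of the sum of 8.07 FPKM came from Gzmb (3.20 FPKM) and Cd3e (1.67 FPKM). That library was the lowest of the 9 for Nkg7 (0.589 FPKM), Cd2 (0.186 FPKM) and Klrb1c (0.155 FPKM). The 10 macrophage markers summed to 235 to 441 FPKM in HBOT, 216 to 338 in CTX and 162 to 234 in NC libraries. The part of these cells in the chemokine values was not tested. RefSeq has a predicted locus, Gm32650, over Ccl5, so reads there cannot be told apart without strand. Ccr1 averaged 1.02 FPKM in HBOT, 0.629 in CTX and 0.788 in NC libraries and was below the filter.

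**Figure D3:**
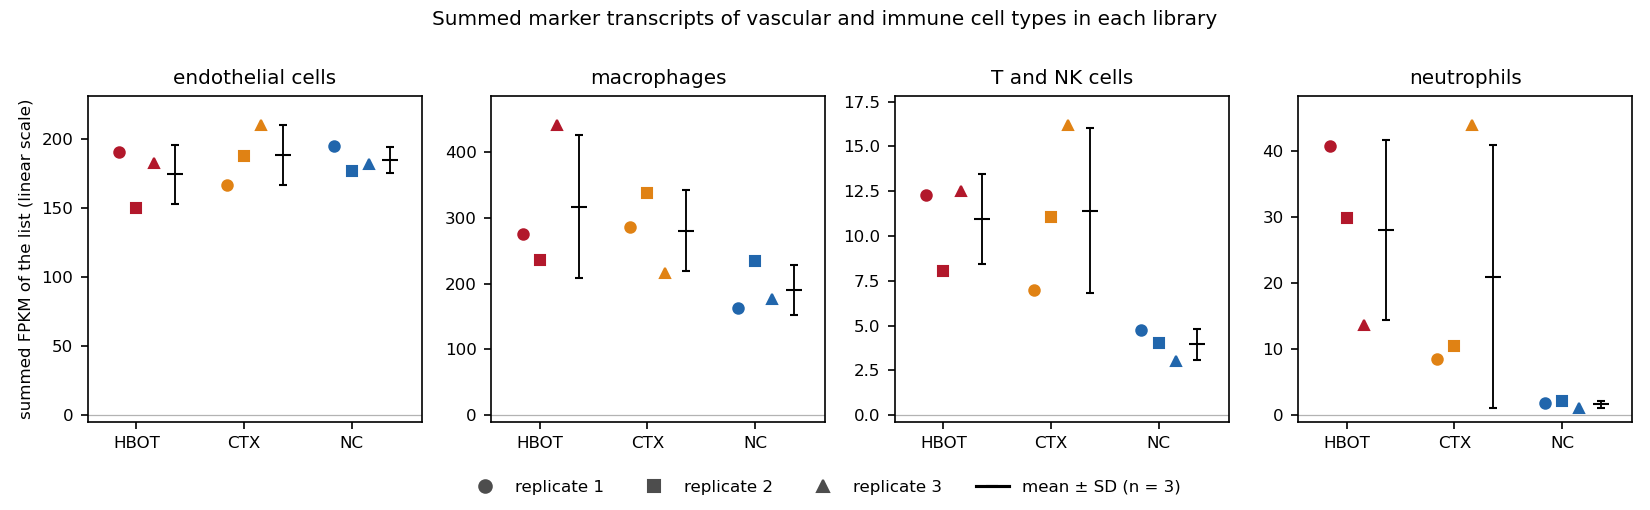
Summed FPKM (linear scale) of marker lists of endothelial cells (12 genes), macrophages (10), T and NK cells (11) and neutrophils (10) in each library by group, with symbols for replicates and bars for the mean ± SD (n = 3). Endothelial sums overlap between groups, whereas the neutrophil sums of HBOT (13.7 to 40.7) and CTX libraries (8.58 to 43.9) lie above those of NC libraries (1.09 to 2.11).

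Ccl2 (ENSMUSG00000035385), which draws monocytes from blood through the receptor CCR2, was at 3.45, 5.21 and 2.05 FPKM in HBOT, 0.692, 3.93 and 1.22 FPKM in CTX, and 3.38, 6.56 and 2.12 FPKM in NC libraries. The groups overlapped, with NC replicate 2 highest and CTX replicate 1 lowest of the 9. CTX against NC gave -0.83 log2 units (SE 0.46, adjusted p = 0.728 by limma) and HBOT against CTX 0.73 (SE 0.46, adjusted p = 0.710). The 2 contrasts share the CTX libraries. HBOT against NC gave -0.10 (SE 0.46, adjusted p = 0.941). Without HBOT replicate 2 HBOT gave 0.48 against CTX and -0.35 against NC. The value of CTX against NC was -1.28 without CTX replicate 2, -0.51 without CTX replicate 1 and -0.48 without NC replicate 2. Ccr2 was at 1.69 to 2.89 FPKM in CTX against 0.854 to 1.38 FPKM in NC libraries, without overlap (0.69, SE 0.22, adjusted p = 0.448), and at 1.11 to 2.28 FPKM in HBOT libraries.

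Cxcl1 (ENSMUSG00000029380), a neutrophil attractant that acts through CXCR2, was at 3.63, 5.46 and 2.08 FPKM in HBOT, 1.92, 3.45 and 2.35 FPKM in CTX, and 2.80, 4.77 and 1.16 FPKM in NC libraries. All 3 groups overlapped, and HBOT replicate 2 was the highest of the 9 libraries. CTX against NC gave -0.04 with a 95% confidence interval of -0.92 to 0.83, which leaves room for a difference near 1 log2 unit either way. HBOT gave 0.36 against CTX and 0.32 against NC (SE 0.38 each), and 0.10 and 0.060 without HBOT replicate 2. Of 10 neutrophil markers 4 met the filter, all through HBOT and CTX libraries alone, and 0 were called. The sum over all 10 was 13.7 to 40.7 FPKM in HBOT, 8.58 to 43.9 in CTX and 1.09 to 2.11 in NC libraries, with Ly6g and Elane at 0 FPKM in all 3 NC libraries. Cxcr2 was at 0.297 to 1.21 FPKM in HBOT, 0.0981 to 0.210 in CTX and 0.0143 to 0.0904 in NC libraries, without overlap and below the filter.

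Cxcl12 (ENSMUSG00000061353), a constitutive stromal chemokine that retains leukocytes and progenitor cells through CXCR4, was at 50.4, 26.3 and 24.8 FPKM in HBOT, 18.1, 24.7 and 29.9 FPKM in CTX, and 32.7, 33.1 and 33.3 FPKM in NC libraries. The NC libraries were close together (SD 0.277 FPKM), and all CTX libraries lay below them. HBOT replicate 1 was the highest of the 9, while HBOT replicates 2 and 3 lay within the CTX range. The difference of CTX against NC was -0.46 (SE 0.27, adjusted p = 0.748 by limma) and -0.27 without CTX replicate 1, and HBOT against CTX was 0.42 with all libraries, 0.10 without HBOT replicate 1 and 0.56 without HBOT replicate 2. HBOT against NC gave -0.04 (SE 0.27, adjusted p = 0.960 by limma), and -0.36 to 0.14 with 1 library left out at a time. Cxcr4 was at 5.84 to 24.8 FPKM in HBOT, 5.90 to 11.1 in CTX and 10.8 to 23.0 in NC libraries. The scavenger receptor Ackr3, which removes CXCL12, was at 5.61 to 10.1, 5.27 to 7.22 and 5.22 to 6.09 FPKM in the same order, and Dpp4, a protease that trims CXCL10 and CXCL12, averaged 0.811, 0.893 and 0.686 FPKM.

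Cxcl16 (ENSMUSG00000018920) encodes a membrane-bound chemokine that attracts T cells through CXCR6 and is released by the proteases of Adam10 and Adam17. It was at 9.04, 7.19 and 9.75 FPKM in HBOT, 8.98, 9.37 and 8.73 FPKM in CTX, and 5.07, 6.53 and 8.50 FPKM in NC libraries. CTX libraries lay above NC libraries, the nearest being 8.73 and 8.50 FPKM, and HBOT libraries overlapped both groups. CTX against NC gave 0.40 (SE 0.18, adjusted p = 0.624 by limma). HBOT gave -0.06 against CTX and 0.34 against NC (SE 0.18 each), and 0.052 and 0.46 without HBOT replicate 2. Without NC replicate 1 CTX against NC was 0.24 and HBOT against NC 0.18. RefSeq has Zmynd15 overlapping this gene. Adam10 and Adam17 averaged 34.0 and 20.0 FPKM in HBOT, 32.8 and 21.9 in CTX and 35.5 and 22.5 in NC libraries, overlapping throughout, and Cxcr6 was below the filter at 0.706 to 1.69, 0.893 to 1.43 and 0.399 to 0.815 FPKM.

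Counted over the 10 members, 6 had CTX and NC libraries that did not overlap, 5 higher in CTX (Vcam1, Ccl5, Cxcl9, Cxcl10 and Cxcl16) and 1 lower (Cxcl12), where 21% of all entries tested did not overlap (13.2% higher and 7.8% lower). Cxcl9 is counted here although it met the filter only through HBOT and CTX libraries. Its nearest CTX and NC libraries were at 0.394 and 0.387 FPKM, and those of Cxcl16 at 8.73 and 8.50 FPKM. The median difference of the 10 members was 0.24 log2 units, against 0.05 over all entries, and 6 of 10 were above 0, as were 59.5% of all entries. Vcam1 and Ccl5 had an unadjusted p under 0.05, both higher in CTX (7.98% of all entries in either direction and 5.24% higher). In HBOT against CTX only Vcam1 did not overlap (10.2% of all entries, 3.76% higher and 6.44% lower), and it was the 1 member with an unadjusted p under 0.05 (6.09% of all, 2.41% higher). The median was 0.15 against -0.07 over all entries, with 5 members above and 5 below 0 (38.4% of all entries were above). That median was 0.0037 without HBOT replicate 1, 0.39 without CTX replicate 2 and -0.022 without both HBOT replicate 2 and CTX replicate 1. In HBOT against NC Vcam1 and Ccl5 did not overlap (20.5% of all entries, 10.9% higher and 9.6% lower), and the same 2 had an unadjusted p under 0.05 (11.9% of all, 6.22% higher). The median was 0.48 against -0.01, with 7 of 10 members and 47.6% of all entries above 0. Without HBOT replicate 2 the median was 0.28 and the members that did not overlap were 5, with Cxcl9, Cxcl10 and Cxcl16 added, but the share of all entries was then 36.8%. The plot of differences shows how wide the intervals of the other members were next to those of Vcam1, Icam2 and Cxcl16. Each group enters 2 of these comparisons, so they are not independent.

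**Figure D4:**
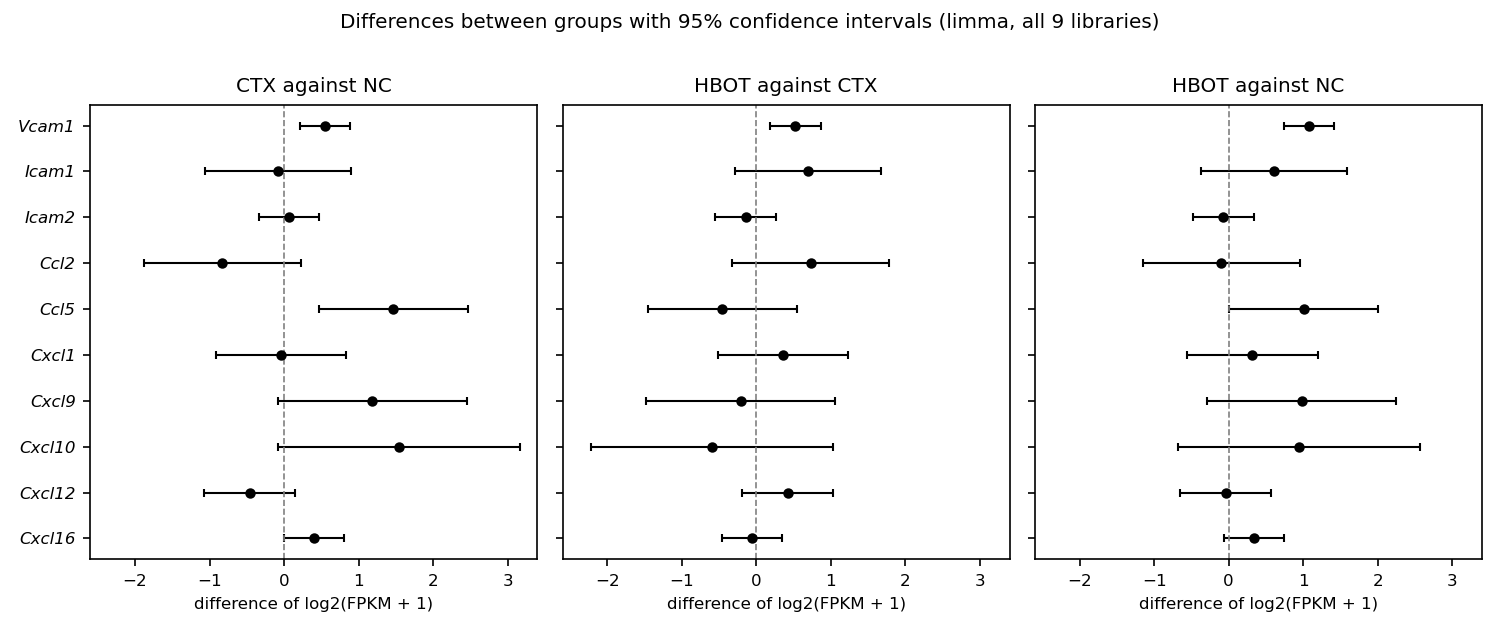
Differences of log2(FPKM + 1) between groups for the 10 members (positive where the group named first is higher), with 95% confidence intervals from limma on all 9 libraries (n = 3 per group). The interval of Vcam1 lies above 0 in all 3 panels (0.74 to 1.42 for HBOT against NC), that of Ccl5 in CTX against NC and HBOT against NC, and all other intervals include 0. The intervals are not adjusted for the number of entries.

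Further genes of leukocyte recruitment gave 0 calls by limma in every comparison. Of 29 other chemokine ligands 12 were tested. In CTX against NC 5 were above and 7 below 0 (median -0.03), where 59.5% of all entries were above. The monocyte attractant Ccl8 was at 1.53 to 4.84 FPKM in CTX against 0.605 to 0.955 FPKM in NC libraries (0.98, SE 0.32, adjusted p = 0.474 by limma). Ccl8 met the filter only through HBOT and CTX libraries. Cxcl14 was at 23.7 to 49.2 FPKM in CTX against 43.0 to 57.3 FPKM in NC libraries. In HBOT against NC 9 were above and 3 below 0, where 47.6% of all entries were above. Ccl17, which attracts helper T cells, was at 0 to 0.548 FPKM in HBOT against 1.12 to 3.26 FPKM in NC libraries. CTX libraries had 0.164 to 2.34 FPKM of Ccl17, overlapping both. It met the filter only through NC and CTX libraries, so its difference from NC is conditioned on a group where it was high. Of 23 chemokine receptors only 7 were tested, with medians of 0.01 in CTX against NC, -0.09 in HBOT against CTX and -0.11 in HBOT against NC. The 19 other vascular adhesion molecules (13 tested) had medians of -0.07, 0.09 and -0.10 in the same comparisons. The selectin ligand Selplg was at 2.99 to 4.66 FPKM in CTX against 1.41 to 2.78 FPKM in NC libraries, and at 3.01 to 5.01 FPKM in HBOT libraries. Of the 10 leukocyte integrin genes 9 were tested, with medians of 0.29, -0.08 and 0.22.

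Genes of NF-kB and inflammatory cytokine signalling (19 listed, 16 tested) had a median of 0.06 in CTX against NC, 0.33 in HBOT against CTX and 0.29 in HBOT against NC. Over all entries the medians were 0.05, -0.07 and -0.01. The list medians that involve HBOT include replicate 2 and were not taken without it. Nfkb1 was at 35.3 FPKM in that library, and averaged 20.3 FPKM in HBOT replicates 1 and 3 and 19.4 FPKM in CTX libraries. Nfkbiz was at 16.3, 4.42 and 4.40 FPKM in the same order. Il1b, the cytokine that induces Icam1, Ccl2 and Cxcl1, was at 1.20, 2.98 and 1.77 FPKM in HBOT libraries, against 0.661 to 0.853 FPKM in CTX and 0.0982 to 0.784 FPKM in NC libraries. It met the filter only through the 3 HBOT libraries, the group where it was high, so its separation is a description and no test is drawn on. Bcl3, a coactivator of NF-kB, was at 7.24, 23.9 and 9.52 FPKM in HBOT against 3.93 to 6.78 FPKM in CTX and 4.605 to 8.29 FPKM in NC libraries, overlapping NC. Il6 was at 7.08 FPKM in HBOT replicate 2 and at 0.271 FPKM or less elsewhere. HBOT replicate 2 was the library with the most Icam1, Cxcl1, Il1b, Bcl3 and Il6, while its Cxcl9 and Cxcl10 were near NC levels. Other genes of the list went the other way there. It was the lowest library for Nfkbie (1.92 FPKM) and Ikbkb (17.8 FPKM), and its Relb and Nfkbia lay below the median of the other libraries.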

How the data were processed

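Transcript levels were measured by paired-end sequencing of oligo(dT)-selected RNA from mouse ovary. The authors deposited FPKM per gene for all 9 libraries in 1 table of 22544 entries, of which 747 are assembled loci without an Ensembl identifier. Reads were trimmed with fastp 0.23.4 and the build was GRCm39, per the submitters' processing notes. For the aligner, counter, annotation and strand setting, the status is: not given in the sources used here. Since the deposited FPKM hold no counts, depth is unknown and no count test or detection floor could be given. All 9 value columns matched a sample, and 0 were left unused.

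Values were tested as log2(FPKM + 1) in 1 limma model of the 3 groups (limma 3.58.1 in R 4.3.3, variance trend, 6 residual degrees of freedom) over entries with at least 1 FPKM in at least 3 libraries, with Benjamini-Hochberg adjustment over all 13338. The pseudocount understates the differences of low genes. The fit was tested on simulated data. The members, gene lists and marker lists were chosen with earlier results of these data known. Every member is named, and some genes that pair with members or belong to the lists are not reported here. From each further list at most 3 genes per comparison with an unadjusted p under 0.05 were named, with the receptors, integrins and proteases that pair with members. Sele, Il6, Ifng, Cxcl11, Ereg, Nfkb1, Nfkbiz, Nfkbie and Ikbkb were named after their values were seen. The same holds for the cell type markers Csf3r, Gzmb, Cd3e, Nkg7, Cd2 and Klrb1c. Alternatives were another pseudocount, filter, scaling and sample set, library weights, a replicate block and leaving out each library. Non-overlap counts without single libraries were added after the data had been seen.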

Additional observations from a re-analysis of the deposited data

How the results depend on the processing

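In the main fit no entry was called. Without a filter on low values 1 entry was called in HBOT against CTX and 1 in HBOT against NC, and with 2 groups fitted alone 31 in CTX against NC. With library weights there were 123, 5 and 181 in CTX against NC, in HBOT against CTX and in HBOT against NC. Leaving out 1 library gave 0 to 9, 0 to 1 and 0 to 3, and leaving out HBOT replicate 2 and CTX replicate 1 together gave 16 in CTX against NC and 2 in HBOT against CTX. Same-numbered libraries did not deviate together (correlations of -0.29 to 0.16 over 9 pairs, 2 above 0.1), so the numbers were not read as pairs, and with a replicate block 0 entries were called in each comparison. Of 528 values of the 30 member differences under alternatives, 501 kept direction and side of the threshold, 2 passed it (Vcam1 and Ccl5 with library weights) and 25 reversed, all of differences of 0.69 log2 units or less in size. With library weights Cxcl16 in HBOT against CTX was 0.019, Icam1 in CTX against NC 0.10 and Cxcl12 in HBOT against NC 0.23. With median-of-ratios scaling Cxcl16 in HBOT against CTX was 0.0070. Without both libraries named above, Cxcl16 was 0.048, Icam1 -0.012 and Cxcl1 -0.032 in HBOT against CTX, Icam1 was 0.071 and Cxcl1 0.09 in CTX against NC, and Cxcl12 was 0.10 in HBOT against NC. Leaving out 1 library at a time gave ranges across 0 in CTX against NC Icam1 -0.27 to 0.071, Cxcl1 -0.41 to 0.29 and Icam2 -0.051 to 0.28, in HBOT against CTX Cxcl9 -0.70 to 0.34, Cxcl10 -1.12 to 0.16 and Cxcl16 -0.14 to 0.052, and in HBOT against NC Cxcl12 -0.36 to 0.14, Ccl2 -0.39 to 0.25 and Cxcl1 -0.052 to 0.65. The values of Icam1 and Cxcl1 in HBOT against CTX ranged up to 1.02 and 0.64. The cause of these reversals was not tested. Among entries with an unadjusted p under 0.05, 65.6% were higher in CTX than in NC, against 54.8% with TPM and 52.7% with median-of-ratios scaling. In HBOT against CTX the share was 39.7%, and 52.7% with median-of-ratios scaling, and in HBOT against NC 52.4%, and 42.3% with TPM scaling. FPKM without counts limit what low genes such as Cxcl9 can show.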
